A study of Oryza sativa with 8 samples.

Results

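The normal expression programmes of the rice anther and of the pre-emerged rice panicle were set side by side in wild-type (WT) plants. Each gene name of the deposited table was compared between its WT anther value and its WT panicle value wherever either reached 1 FPKM (fragments scaled by transcript length and by library size), which left 18935 of 30154 gene names. All plants were Pusa Basmati 1 (PB1), an Indica cultivar of Oryza sativa, kept in a greenhouse, and WT plants carried no transgene that the labels name. WT anthers were taken before dehiscence (the opening that sheds pollen), and WT panicles were taken before they emerged from the leaf sheath. The same tissues from an nrpd1 knockdown, in which the largest subunit of RNA polymerase IV is lowered, make up the rest of the 8 libraries and are cited below only as a separate pair of columns. Each group has 2 libraries in the labels but 1 value per gene in the table, so the differences below carry no standard deviation or test, and how they compare with replicate error is unknown. The labels give no panicle length, anther stage or number of plants.

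An anther consists of a wall of a few cell layers around the pollen. Its innermost layer, the tapetum, feeds the developing pollen and builds much of the pollen coat before it degenerates, and the pollen itself then fills with sugar-derived starch and readies its cell wall and actin skeleton for tube growth. A pre-emerged panicle is a mixed organ of branches and spikelets, with green lemma and palea enclosing lodicules, anthers and pistil, so its RNA includes that of whatever anthers it held. In tissue of mixed cells, fewer cells of a type and less RNA per cell cannot be told apart.

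The WT anther transcriptome was concentrated in a small number of very abundant genes, and the panicle transcriptome was spread more evenly. In anther 432 genes made up 50% of the summed FPKM, whereas in panicle 1083 genes were needed. The 10 most abundant genes held 12.1% of the anther total and 5.54% of the panicle total. At least 1000 FPKM was reached by 62 genes in anther and by 14 genes in panicle. The summed FPKM was 636692 in anther and 382488 in panicle, a log2 ratio of 0.74, and without the 72 genes that reached 1000 FPKM in either column the log2 ratio of the sums was 0.44. The median over compared genes was nearly level, at 6.60 FPKM in anther and 6.75 FPKM in panicle. Depth is not given by the table, so no counting error is attached to these values.

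Differences are given as anther minus panicle on the log2(FPKM + 1) scale, and a gene was called higher in a tissue when this difference reached 1, that is 2-fold on that scale. Of the compared genes 3856 (20.4%) were higher in anther, 3429 (18.1%) were higher in panicle and 11650 (61.5%) lay within 2-fold. The median difference was 0.07, with quartiles of -0.69 and 0.82. When both columns were scaled to the same total the split became 2193 higher in anther and 6297 higher in panicle, so that 25.8% of the called genes were higher in anther in place of 52.9%, and the median moved to -0.58. Quantile normalization left the split at 3679 and 3532 genes. The balance between the tissues is therefore relative to the scaling, and single genes below are described together with that dependence.

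**Figure D1:**
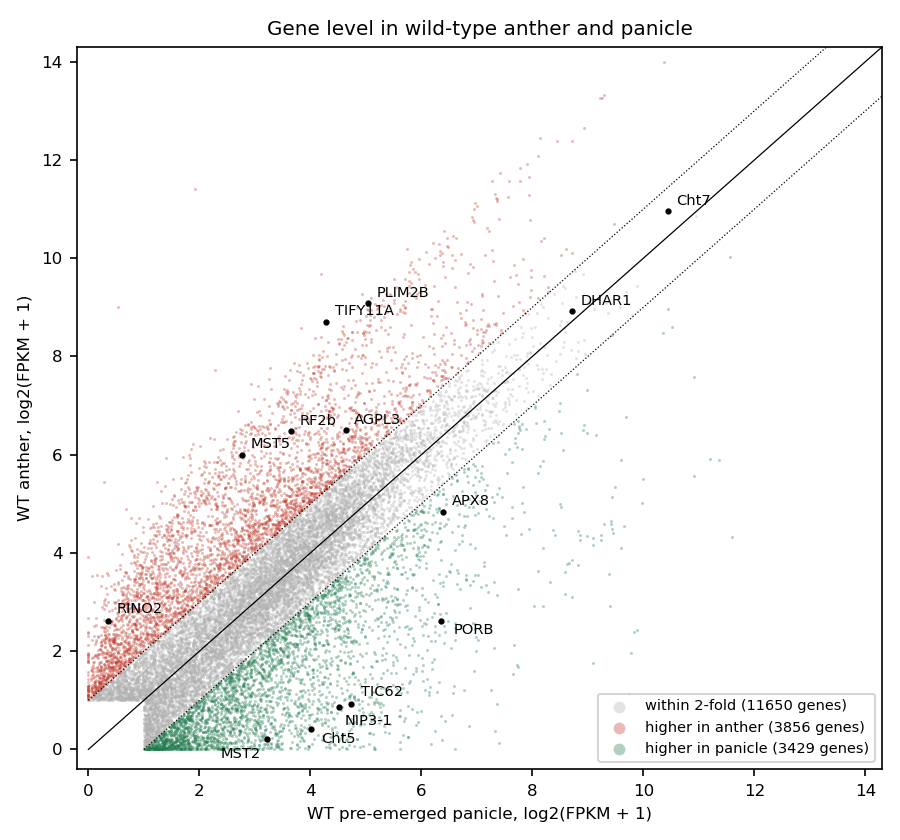
Each point is 1 of the compared genes, with WT pre-emerged panicle on the horizontal axis and WT anther on the vertical axis, both as log2(FPKM + 1). The solid line marks equal values and the dotted lines the 2-fold threshold, with 3856 genes above it in red, 3429 below it in green, and labelled black points for named genes. The upper cloud reaches higher values than the lower one, and few abundant anther genes lie near the vertical axis.

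In the values as deposited, the direction of the difference went with abundance. The abundance classes use the higher of the same 2 values that make the call, and they were not recomputed under the other scalings. Among the 2495 genes whose higher WT value was 1 to 2 FPKM, 6.29% were higher in anther and 13.8% in panicle. At 5 to 20 FPKM the shares were 17.0% and 19.1%. At 100 to 1000 FPKM 51.5% of 1143 genes were higher in anther and 15.3% in panicle, and of the 72 genes at 1000 FPKM or more, 59 were higher in anther and 11 in panicle. Genes higher in anther supplied 63.0% of the anther total and 16.4% of the panicle total. Genes higher in panicle supplied 31.2% of the panicle total and 3.08% of the anther total.

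**Figure D2:**
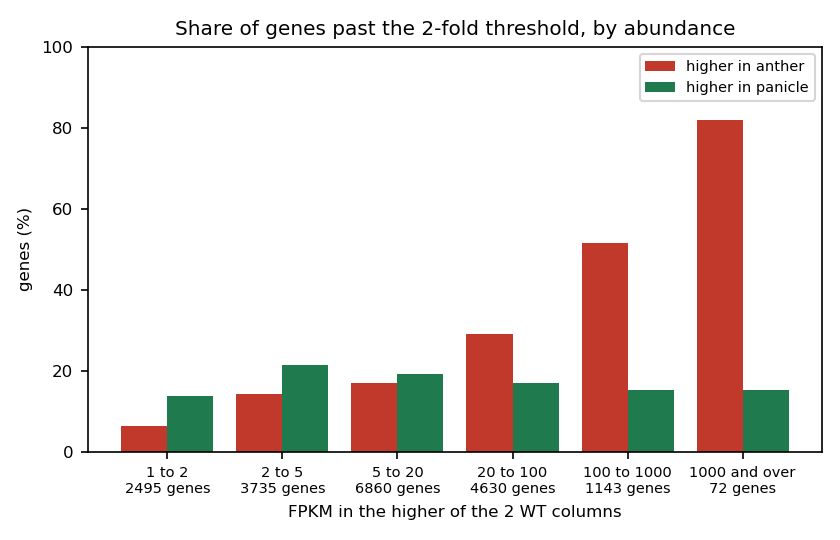
Share of compared genes (vertical axis, percent) that were higher in anther (red) or in panicle (green) by at least 1 on the log2(FPKM + 1) scale, by the FPKM of the higher WT column (horizontal axis, with the number of genes). The anther share climbs from 6.29% to 81.9% across the classes, while the panicle share stays between 13.8% and 21.3%.

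At the median, genes with at least 100 FPKM in anther had 33.3% of that value in panicle. Genes with at least 100 FPKM in panicle had a median of 86.0% of that value in anther. These shares are of the values as deposited, and ratios between the columns move with the scaling. The extremes went the other way: abundant anther transcripts were seldom nearly missing from panicle, whereas a set of abundant panicle transcripts was nearly missing from anther. Of the 997 genes with at least 100 FPKM in anther, 16 (1.6%) had under 5% of that value in panicle. Of the 590 genes with at least 100 FPKM in panicle, 61 (10.3%) had under 5% of that value in anther. The same order of the extremes held at lower levels. Of 4763 genes with at least 20 FPKM in anther, 2 were below 0.5 FPKM in panicle, and of 4023 genes with at least 20 FPKM in panicle, 61 were below 0.5 FPKM in anther. How much anther tissue the panicle sample held was not tested.

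The table names most genes by an Os identifier alone, and the reference used here pairs none of its 29982 identifiers with a symbol. The extremes among genes without a symbol can thus be placed but not described by function. Os03g0650300 (chromosome 3, 25227166 to 25228502, build not given in the sources used here) stood at 2711 FPKM in anther and 2.79 FPKM in panicle, a log2 difference of 9.48. Os04g0101700 on chromosome 4 stood at 510 FPKM in anther and 0.447 FPKM in panicle, a difference of 8.46. These are the 2 genes with the largest excess in anther. In the opposite direction, Os12g0291733 on chromosome 12 stood at 1.198 FPKM in anther and 854 FPKM in panicle, a difference of -8.60, and Os01g0720500 on chromosome 1 at 2.89 and 879 FPKM, a difference of -7.82. The most abundant anther transcript, on chromosome 6 and without a symbol, reached 16353 FPKM in anther and 1323 FPKM in panicle. The most abundant panicle transcript, on chromosome 11 and also without a symbol, reached 3079 FPKM in panicle and 18.9 FPKM in anther.

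Functions could be followed through the 176 symbols that the table itself carries. They occur in 188 entries, 29 of which join the symbol with neighbouring or overlapping genes whose reads are not separated, and such entries are written with all their names. Of the symbols, 99 were found in the RefSeq gene table (assembly ASM3414082v1), 96 of them on the same chromosome. Of the 188 entries 129 reached 1 FPKM in either WT column. Among these 25 (19.4%) were higher in anther and 26 (20.2%) higher in panicle, shares close to the 20.4% and 18.1% over all compared genes, so by this count the entries lean to neither organ. With equal totals all 26 panicle calls and 11 of the 25 anther calls were kept; NAP1,Os08g0544250, Cht8, ARF16, Smt1-1 and PHR were lost together with 9 entries named below. With the same scaling 17 entries within 2-fold became higher in panicle, among them MSP1, D53, MSBP1, TOR, SHL2, ORRM1, AGPL4, MST3,Os07g0106100 and 20ox2,Os01g0883850. The entries are described in groups by what their products do. The groups were formed after the values were seen, so their counts are descriptions, to be read against 20.4% higher in anther, 18.1% higher in panicle and 61.5% within 2-fold over all compared genes.

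**Figure D3:**
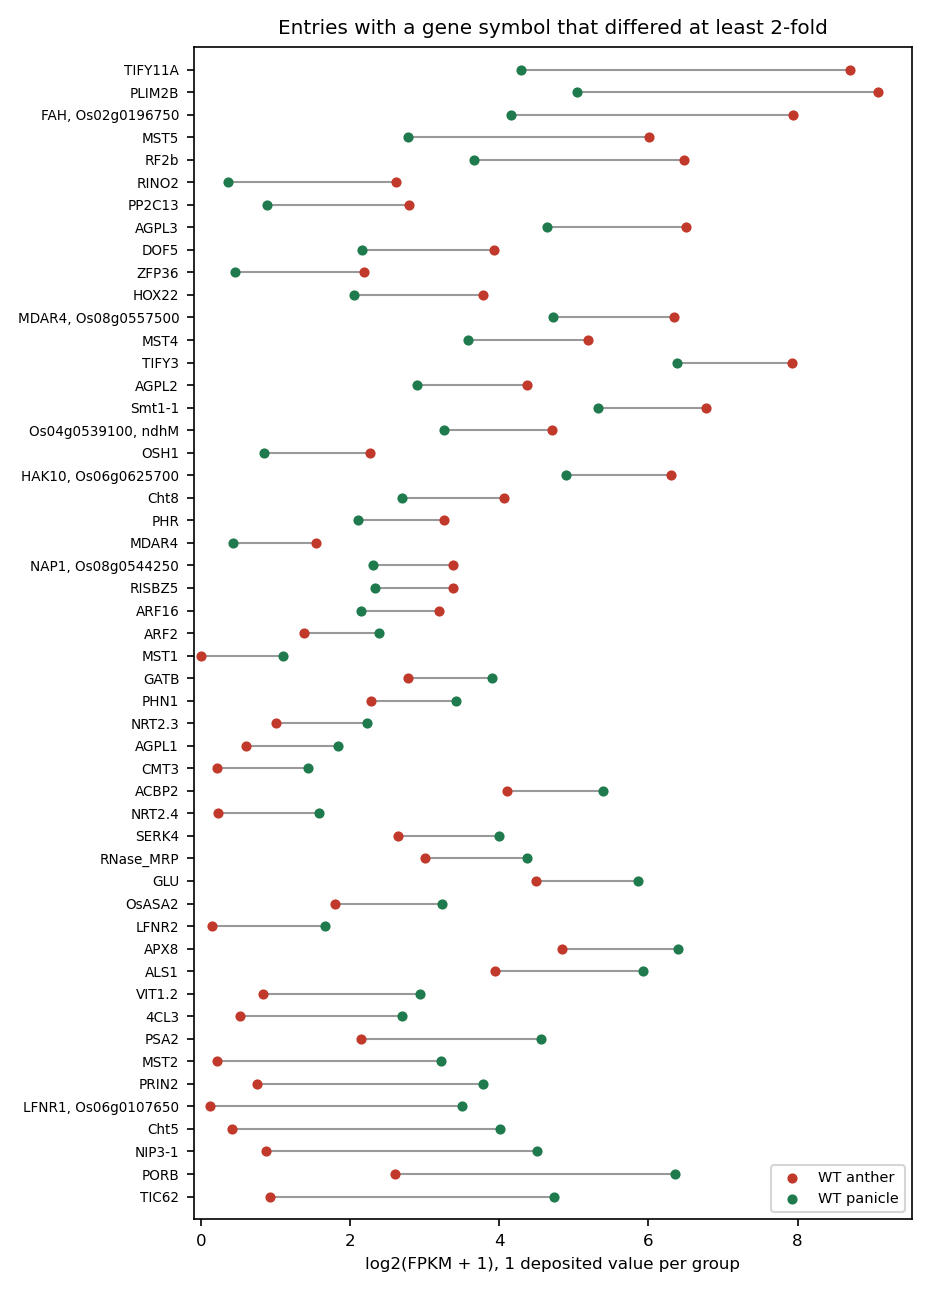
The 51 entries with a symbol that passed the threshold, ordered by difference, with WT anther (red) and WT panicle (green) as log2(FPKM + 1) on the horizontal axis and 1 deposited value per point. TIFY11A and PLIM2B at the top are separated by 4.43 and 4.05, and PORB and TIC62 at the bottom by -3.75 and -3.81.

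Genes of plastid function had the lowest median of the 15 groups. Of 10 compared entries, 7 were higher in panicle (18.1% over all compared genes), 1 was higher in anther (20.4%) and 2 lay within 2-fold, and the median difference was -1.96 against 0.07 over all compared genes. PORB, which encodes the light-dependent protochlorophyllide oxidoreductase of chlorophyll synthesis, stood at 5.08 FPKM in anther and 81.1 FPKM in panicle, 15.95-fold higher in panicle. TIC62, a protein of the chloroplast envelope and thylakoid that binds ferredoxin-NADP reductase, stood at 0.887 FPKM in anther and 25.5 FPKM in panicle, 28.7-fold higher. Its partner enzyme, leaf-type ferredoxin-NADP reductase, moved alike: the entry LFNR1,Os06g0107650 had 0.0883 FPKM in anther and 10.3 FPKM in panicle, and LFNR2 had 0.109 and 2.15 FPKM. Of these 4 entries only PORB exceeded 1 FPKM in anther.

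The other plastid entries in favour of panicle concern plastid gene expression and assembly. PRIN2, known in Arabidopsis as a partner of the plastid-encoded RNA polymerase, had 0.672 FPKM in anther and 12.7 FPKM in panicle. PSA2, known in Arabidopsis for photosystem I assembly, had 3.41 FPKM in anther and 22.6 FPKM in panicle. GATB, a subunit of the organellar glutamyl-tRNA amidotransferase, was the smallest of the 7 differences, at 5.87 and 14.0 FPKM. ORRM1, an organelle RNA editing factor, had 0.339 FPKM in anther and 1.58 FPKM in panicle and did not pass the threshold. In the opposite direction, an entry joining Os04g0539100,ndhM, the latter a subunit of the chloroplast NADH dehydrogenase-like complex, had 25.05 FPKM in anther and 8.53 FPKM in panicle; its difference of 1.45 fell to 0.77 with equal totals. The entry joining psbE and psbF with Os03g0659200 and Os03g0659350 had 29.4 FPKM in anther and 19.3 FPKM in panicle. Its symbols are those of plastid genome genes placed on chromosome 3, so reads of near-identical copies may be shared there. All 7 plastid entries in favour of panicle kept that call under each scaling tried, and all were also higher in panicle in the knockdown columns.

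Of 5 compared entries of amino acid and phenylpropanoid synthesis, 4 were higher in panicle (18.1% over all compared genes), and 1 of 8 entries of the ascorbate cycle was. APX8, the thylakoid-bound ascorbate peroxidase, had 27.7 FPKM in anther and 83.3 FPKM in panicle, 3.01-fold higher. GLU, the ferredoxin-dependent glutamate synthase of ammonium assimilation, had 21.4 and 57.1 FPKM. ALS1, acetolactate synthase of branched-chain amino acid synthesis, had 14.4 and 59.6 FPKM, and OsASA2, an anthranilate synthase subunit of tryptophan synthesis, had 2.46 and 8.40 FPKM. All 4 were higher in panicle in WT. In the knockdown columns GLU was called the same way, and the differences of APX8 (-0.99), ALS1 (0.13) and OsASA2 (0.19) did not pass the threshold. A second entry at the anthranilate synthase locus, OsASA2,Os03g0264150, stood at 6.85 FPKM in anther and 4.63 FPKM in panicle, so that the locus as a whole was not placed by the first entry alone. 4CL3, a 4-coumarate-CoA ligase of phenylpropanoid synthesis, had 0.434 FPKM in anther and 5.49 FPKM in panicle.

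Of the other 7 compared entries of the ascorbate cycle, 2 were higher in anther (20.4% over all compared genes) and 5 lay within 2-fold. Ascorbate that has been used against peroxide is regenerated by monodehydroascorbate reductases (MDAR) and dehydroascorbate reductases (DHAR). DHAR1 was among the most abundant entries with a symbol in both organs, at 483 FPKM in anther and 419 FPKM in panicle, and MDAR3,Os09g0567366 followed at 161 and 124 FPKM. Both lay within 2-fold, as did DHAR2 at 25.02 and 29.8 FPKM and MDAR2 at 0.588 and 1.202 FPKM; with equal totals DHAR2 reached -0.95 and MDAR2 -0.82. MDAR4,Os08g0557500 was higher in anther, at 80.0 against 25.4 FPKM, and the faint MDAR4 entry at the same locus was also higher in anther, at 1.92 against 0.338 FPKM. With equal totals the MDAR4 differences of 1.61 and 1.12 dropped below the threshold, to 0.90 and 0.80.

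Members of the sugar transporter and starch enzyme families were called in both directions. Of 16 compared entries for sugar transport, starch and inositol synthesis 5 were higher in anther (20.4% over all compared genes), 3 higher in panicle (18.1%) and 8 within 2-fold, with a median difference of 0.31. With equal totals 3 were higher in anther and 6 in panicle. Among the monosaccharide transporters, which import hexoses into cells that lack symplastic connections such as pollen, MST5 led in anther at 63.1 FPKM against 5.84 FPKM in panicle, 10.8-fold higher. MST4 was also higher in anther, at 35.4 against 11.0 FPKM. MST2 was the reverse, at 0.160 FPKM in anther and 8.30 FPKM in panicle, and MST1 was listed at 0 in anther and had 1.13 FPKM in panicle. MST6 (19.8 and 16.3 FPKM) and MST3,Os07g0106100 (13.02 and 17.5 FPKM) lay within 2-fold. The family's summed FPKM was 131.6 in anther and 60.05 in panicle. MST5 made up 48.0% of it in anther and 9.73% in panicle, while MST2 made up 0.122% and 13.8%.

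MST8, a transporter described in rice anthers, had 0.0416 FPKM in anther and 0.0317 FPKM in panicle and was not compared, and MST7 was listed at 0 in both. SUT2,Os12g0641300, whose symbol is that of the vacuolar sucrose transporter, had 54.0 FPKM in anther and 32.2 FPKM in panicle and did not pass the threshold.

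ADP-glucose pyrophosphorylase, the enzyme that commits glucose to starch, consists of large (AGPL) and small (AGPS) subunits. AGPL3 was the main large subunit in both organs and was higher in anther, at 90.0 against 23.8 FPKM, and AGPL2 was higher in anther as well, at 19.6 against 6.45 FPKM. AGPL1 was higher in panicle, at 0.520 against 2.56 FPKM. AGPL4 (4.18 and 7.50 FPKM), AGPS1 (1.99 and 1.33 FPKM) and AGPS2 (1.12 and 1.24 FPKM) lay within 2-fold. The subunits together summed to 117.4 FPKM in anther and 42.9 FPKM in panicle. RINO2, inositol-3-phosphate synthase, which starts inositol and phytate synthesis, had 5.13 FPKM in anther and 0.285 FPKM in panicle. With equal totals AGPL3, RINO2 and MST5 kept their calls in anther, and MST4 (0.91) and AGPL2 (0.80) did not.

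**Figure D4:**
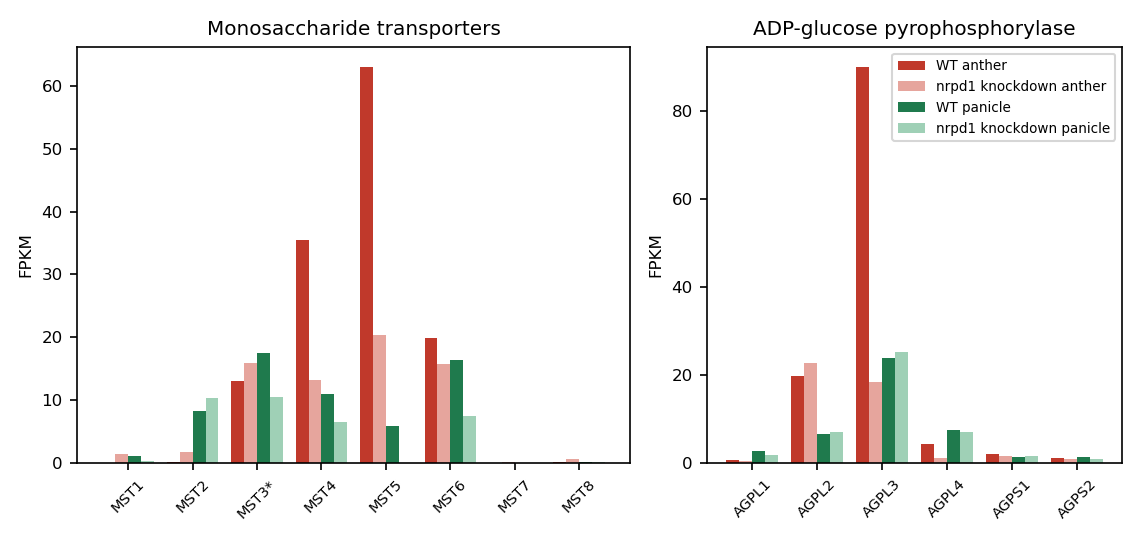
FPKM (vertical axis, from 0) of the monosaccharide transporters and of the ADP-glucose pyrophosphorylase subunits in WT anther, nrpd1 knockdown anther, WT panicle and nrpd1 knockdown panicle, 1 deposited value per bar; the asterisk marks the joined entry MST3,Os07g0106100. MST5 (63.1 FPKM) and AGPL3 (90.0 FPKM) stand out in WT anther, and MST2 (8.30 FPKM) appears in panicle with almost nothing in WT anther.

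Of 10 compared entries for the cytoskeleton, male meiosis and anther wall development, 2 were higher in anther (20.4% over all compared genes), none was higher in panicle (18.1%) and 8 lay within 2-fold (61.5%). Their median difference was 0.63, and -0.06 with equal totals. The largest difference was that of PLIM2B, whose product belongs to the pollen-type LIM proteins that bundle actin, at 541 FPKM in anther and 31.8 FPKM in panicle, 17.0-fold higher. The entry NAP1,Os08g0544250, whose symbol names a regulator of actin nucleation, was at 9.44 and 3.95 FPKM, but the NAP1 entry of the same locus was level, with 15.8 FPKM in panicle and a difference of 0.09. DTM1, needed for tapetum and meiocyte development in rice, had 38.2 FPKM in anther and 20.1 FPKM in panicle. The kinesins KIN13A and PSS1, the latter a rice pollen fertility gene, had 47.3 against 28.8 FPKM and 11.0 against 7.18 FPKM. None of these 3 passed the threshold.

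CRC1, a central element protein of the synaptonemal complex that pairs meiotic chromosomes, stood at 5.23 FPKM in anther and 3.86 FPKM in panicle. MSP1, the receptor kinase that limits the number of cells entering sporogenesis in rice, was fainter in anther, at 1.15 against 2.997 FPKM, a difference of -0.89 that lay within 2-fold. The formin FH5 (19.9 and 16.3 FPKM) and the small GTPase RAC1 (13.2 and 7.38 FPKM) were level as well. None of the early anther and meiotic genes found here was called.

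Of 10 entries for floral identity and meristems 3 were compared, and the other 7 stayed under 1 FPKM in both columns. MADS14, an APETALA1-type MADS gene of spikelet meristems, was level at 14.2 FPKM in anther and 15.3 FPKM in panicle. MADS58, a C-class gene of stamens and carpels, had 1.84 and 0.975 FPKM. OSH1, the KNOX homeobox gene that marks shoot meristem cells, was higher in anther, at 3.78 against 0.788 FPKM, a difference of 1.42 that became 0.97 with equal totals. MOC1, a GRAS gene of axillary meristems, and LAX2, another branching gene, stayed under 1 FPKM in both columns, and MADS30 was listed at 0 in both.

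Among the other transcription factors 5 of 9 compared entries were higher in anther (20.4% over all compared genes) and none was higher in panicle (18.1%), with a median difference of 1.04. With equal totals 4 were higher in anther and 1 in panicle, and the median was 0.42. RF2b, a bZIP factor known from the promoter of a rice tungro virus, had 88.3 FPKM in anther and 11.6 FPKM in panicle, 7.59-fold higher. DOF5, a zinc finger factor, had 14.2 and 3.46 FPKM, and HOX22, an HD-Zip factor, had 12.7 and 3.15 FPKM. ZFP36, a zinc finger factor of abscisic acid responses, had 3.53 and 0.369 FPKM, and the bZIP factor RISBZ5 had 9.40 and 4.04 FPKM. The most abundant factor of the group, DOF4, lay within 2-fold at 147 and 109 FPKM. RISBZ5 lost its call with equal totals (0.42), and the other 4 kept theirs under each scaling.

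Of 11 compared entries of hormone pathways 4 were higher in anther (20.4% over all compared genes) and 1 in panicle (18.1%). With equal totals these became 2 and 3, so the balance of the group depends on the scaling. The jasmonate pathway, which in anthers governs dehiscence and late pollen maturation, gave the largest difference. TIFY11A, a JAZ-type repressor that jasmonate itself induces, had 418 FPKM in anther and 18.5 FPKM in panicle, 22.6-fold higher. As deposited, its log2(FPKM + 1) difference of 4.43 was the largest in size of any entry with a symbol. As a plain fold TIC62 was larger, at 28.7 in favour of panicle. With equal totals TIFY11A fell to 3.71, behind PORB at -4.43. Quantile normalization and a pseudocount of 0.1 also placed entries higher in panicle ahead of it. Among entries higher in anther, TIFY11A ranked first at each of these settings. TIFY3, of the same protein family, had 243 and 82.2 FPKM, a difference of 1.55 that fell to 0.82 with equal totals and 0.87 with quantile normalization. PP2C13, a phosphatase of the class that includes abscisic acid co-receptors, had 5.89 and 0.846 FPKM.

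The kinases SAPK8 (110 and 57.0 FPKM) and SAPK4,Os01g0870100 (55.7 and 36.1 FPKM), of the osmotic stress and abscisic acid pathway, did not pass the threshold. The auxin response factors were divided. ARF16 was higher in anther, at 8.12 against 3.44 FPKM, and ARF2 was higher in panicle, at 1.605 against 4.21 FPKM. Both lay at the threshold, with 1.04 and -1.001, and ARF2 fell short of it with the columns centred (-0.97) or quantile normalized (-0.85). D53, the strigolactone pathway repressor, had 2.60 and 5.49 FPKM, and 20ox2,Os01g0883850, whose symbol names the semidwarf gibberellin oxidase, had 1.27 and 2.63 FPKM. Neither passed the threshold.

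Of 10 compared entries for transport of minerals, nitrate and water 4 were higher in panicle (18.1% over all compared genes) and 1 was higher in anther (20.4%). NIP3-1, an aquaporin-family channel that carries boric acid in rice, had 0.830 FPKM in anther and 21.8 FPKM in panicle, 26.3-fold higher. VIT1.2, a homologue of vacuolar iron transporters, had 0.776 and 6.68 FPKM. The nitrate transporters NRT2.3 (1.01 and 3.65 FPKM) and NRT2.4 (0.173 and 1.98 FPKM) were higher in panicle at low levels. The anther gene of the group was the potassium transporter entry HAK10,,Os06g0625700, at 78.1 against 28.8 FPKM, whose difference of 1.41 became 0.69 with equal totals.

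Chitinases cleave chitin and include defence proteins. Of 8 compared entries 1 was higher in anther and 1 in panicle, against 20.4% and 18.1% over all compared genes. Cht7 was the most abundant entry with a symbol in each organ, at 2000 FPKM in anther and 1392 FPKM in panicle, and lay within 2-fold; its difference of 0.52 turned to -0.21 with equal totals and -1.08 with quantile normalization. Cht5 was higher in panicle, at 0.337 against 15.1 FPKM, and Cht8 was higher in anther, at 15.8 against 5.45 FPKM. The other 5 compared chitinases lay within 2-fold, among them Cht1 at 11.98 and 7.41 FPKM.

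Of 10 compared lipid and sterol entries 8 lay within 2-fold (61.5% over all compared genes), 1 was higher in anther and 1 in panicle, and with equal totals 3 were higher in panicle and none in anther. The acyl-CoA-binding protein entry ACBP1,Os08g0162700 was abundant in both, at 270 and 246 FPKM. ACBP2 was higher in panicle, at 16.2 against 40.7 FPKM, and Smt1-1, the sterol methyltransferase at the branch towards plant sterols, was higher in anther, at 109 against 38.9 FPKM. MSBP1, a membrane steroid-binding protein, had 97.3 FPKM in anther and 176 FPKM in panicle, a difference of -0.85 within the threshold. 

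Of 6 compared entries for small RNA and chromatin 5 lay within 2-fold (61.5% over all compared genes) and 1 was higher in panicle (18.1%). CMT3, a plant DNA methyltransferase of non-CG sites, was higher in panicle, at 0.153 against 1.71 FPKM. SHL2, the RNA-dependent RNA polymerase of the trans-acting siRNA pathway, had 5.09 FPKM in anther and 8.04 FPKM in panicle. BRE1A, a ligase that ubiquitinates histone H2B, was level at 21.2 and 19.4 FPKM. Among receptor kinases and growth regulators 1 of 5 was called, SERK4 at 5.25 against 14.9 FPKM in favour of panicle. TOR, the kinase that ties growth to nutrients, had 17.4 and 32.9 FPKM and did not pass the threshold.

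The remaining 12 compared entries with a symbol held 2 higher in anther (20.4% over all compared genes) and 2 higher in panicle (18.1%). With equal totals these became 1 and 5. A pair of entries with the symbol FAH, whose function is not given by the table, differed from each other. FAH,Os02g0196750 was higher in anther at 244 against 16.7 FPKM, and FAH,Os02g0196850 was level at 59.2 and 54.9 FPKM. PHR, a DNA photolyase, was also higher in anther, at 8.57 against 3.28 FPKM. RNase_MRP, an RNA component symbol, and PHN1 were higher in panicle, at 7.01 against 19.7 FPKM and 3.83 against 9.72 FPKM. All 6 compared entries that join a gene with a small nucleolar RNA, a transfer RNA or a microRNA lay within 2-fold (61.5% over all compared genes).

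The tissue difference was also read from the knockdown plants, whose columns share no library with the WT columns but differ in genotype. There 2653 genes (14.0% of those compared) were higher in anther and 4261 (22.5%) higher in panicle. Of the genes higher in WT anther 1672 were also higher in knockdown anther, which is 43.4% of the WT list and 63.0% of the knockdown list, and 153 were higher in knockdown panicle. Of the genes higher in WT panicle 2088 were also higher in knockdown panicle, which is 60.9% of the WT list and 49.0% of the knockdown list, and 82 were higher in knockdown anther. Genes that differed by at least 2 on the log2 scale in WT, 1477 (7.8%) in favour of anther and 1248 (6.59%) in favour of panicle, were called the same way in 72.0% and 82.1% of cases. Among entries with a symbol, 14 of the 25 anther calls and 15 of the 26 panicle calls were made in the knockdown too, and 24 and 21 had the same sign. Those repeated include TIFY11A (91.4 and 9.71 FPKM in knockdown anther and panicle), PLIM2B (71.5 and 0.0372 FPKM), MST5 (20.3 FPKM and listed at 0), PORB (1.19 and 39.5 FPKM) and TIC62 (1.33 and 17.4 FPKM). Of the anther calls not repeated, 9 lay within 2-fold in the knockdown and 2 were not compared there. For the panicle calls these numbers were 9 and 1, and 1 was called in the opposite direction. RF2b (0.56), TIFY3 (0.68) and MST4 (0.91) were among the anther calls that fell short of the threshold in the knockdown. AGPL3 is the single anther call with the opposite sign, at 18.3 FPKM in knockdown anther and 25.04 FPKM in knockdown panicle. Genotype and library cannot be told apart in these differences.

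**Figure D5:**
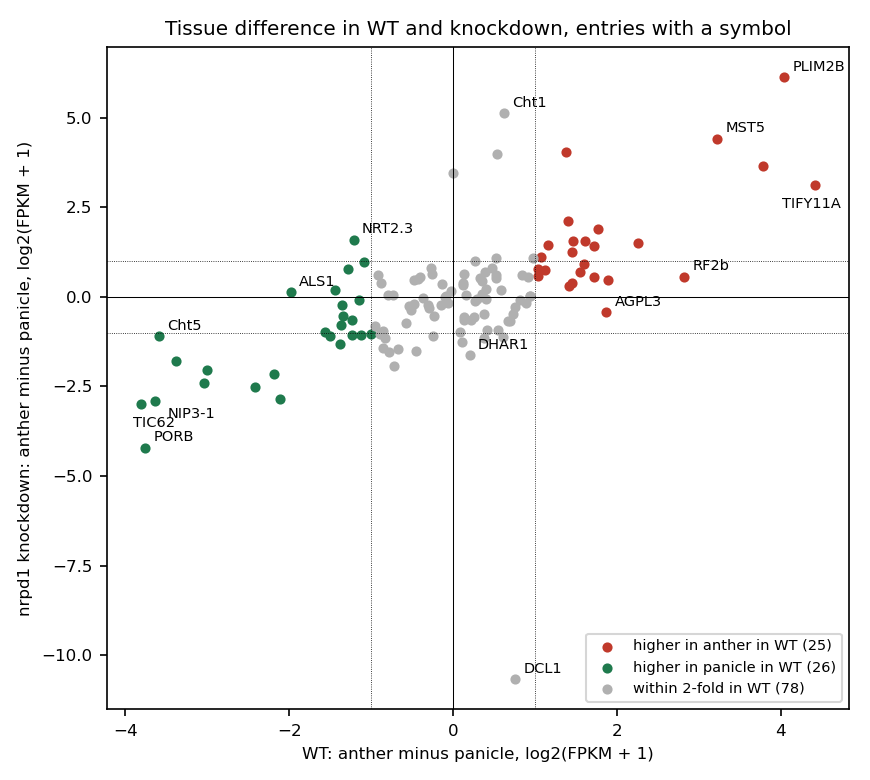
Anther minus panicle difference on the log2(FPKM + 1) scale in WT (horizontal axis) and in the nrpd1 knockdown (vertical axis) for the 129 compared entries with a symbol, coloured by the WT call, with dotted lines at the threshold. The largest WT differences keep their side, NRT2.3 lies past the threshold in opposite directions, and DCL1 stands far below the others at -10.66 in the knockdown.

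The called genes were spread over the genome. By chromosome the share higher in anther ran from 19.0% (chromosome 3) to 21.8% (chromosome 2), and the share higher in panicle from 16.6% (chromosome 6) upwards, with chromosome 4 at the top (323 of 1618 genes). Chromosome 6 supplied 11.0% of the anther total and 7.36% of the panicle total, and it carries the most abundant anther transcript. Neighbouring loci were alike only slightly more often than all loci. The locus next to one higher in anther was also higher in anther in 23.0% of cases against 20.3% of all 16773 compared loci, and for panicle the shares were 22.0% and 18.3%. The longest stretches held 6 consecutive compared loci. There were 5 of them in favour of anther and 1 in favour of panicle. On chromosome 4 (23492900 to 23599326) all 6 loci were higher in anther, with 11.1 to 181 FPKM in anther and 2.297 to 20.7 FPKM in panicle, and 5 of the 6 were so in the knockdown as well. On chromosome 7 (23274103 to 23359667) all 6 were higher in panicle, with 1.63 to 461 FPKM in panicle and 0.01 to 19.7 FPKM in anther. There 4 of the 6 were so in the knockdown. The other anther stretches repeated less often in the knockdown, at 1 of 6 loci on chromosome 1 and 2 on chromosome 10. On chromosomes 6 and 8 the numbers were 2 and 3.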

How the data were processed

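Directional RNA libraries were made from total RNA with a NEBNext Ultra II kit, per the labels' protocols. The submitters' processing notes name Trimmomatic, HISAT2 and Cufflinks 2.2.1, without role or order; genome build and annotation are not given in the sources used here. The values are FPKM, deposited by the authors as 1 column per group of 2 libraries, and how libraries were combined is not stated per the file headers. FPKM divides by transcript length and carries no read number, so depth is unknown and no interval is given. No other sample column was present (0 unused).

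Rows sharing a gene name were summed (43897 rows, 30154 names), and log2(FPKM + 1) was compared between the WT columns where either reached 1 FPKM, with a threshold of 1. With 1 value per group no test was possible. Of 13548 names with 2 rows, 2492 had both rows compared. Of these, 775 had both rows past the threshold, in the same direction for 755. The members and lists were chosen with earlier results of these data known. Named genes were, by rule, list members reaching 1 FPKM (at most 8 per list), the 12 largest differences in each direction and the 10 most abundant entries per column among symbols, and the 2 of each without a symbol. The 15 role groups, which cover every symbol in the table, were assigned after its values were seen, and genes named from them outside the rule were so chosen. Alternatives were a pseudocount of 0.1, no filter, a mean of at least 5 FPKM, equal totals, median centring, quantile normalization, a threshold of 2, and rows as deposited. In values simulated on the already summed names, calling at the reported setting recovered most of the planted changes. Those changes were planted well past the threshold, with little noise and only in genes above 1 FPKM in panicle. Their recovery was thus set by the design, and it measures neither replicate error nor the calling of low values. The summing of rows was not simulated. Python 3.11.15, numpy 2.4.6, pandas 2.3.3 and matplotlib 3.10.9 were used.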

Additional observations from a re-analysis of the deposited data

Results flagged for a closer look

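NRT2.3, a nitrate transporter gene, was past the threshold in both genotypes but in opposite directions. Its anther minus panicle difference was -1.21 in WT, from 1.01 FPKM in anther and 3.65 FPKM in panicle, and 1.59 in the nrpd1 knockdown, from 12.5 and 3.48 FPKM. The panicle values were close to each other and the anther values were not. With a single value behind each of the 4 groups, this difference between genotypes was not tested. It was the 1 entry with a symbol, of 51 called in WT, to do so.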

How the results depend on the processing

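No paired analysis was possible because replicates are merged into single columns; limma with a replicate block and leaving out single libraries were not run. Equal totals moved the counts to 2193 genes higher in anther and 6297 higher in panicle (25.8% of called genes higher in anther) with a median of -0.58; that scaling takes 0.74 off every log2 difference before the pseudocount. Keeping genes with a mean of 5 FPKM or more gave 1752 genes in favour of panicle and a median of 0.21. A log2 threshold of 2 left 1477 and 1248 genes. The other settings kept both counts within 1.5 times. They gave 3679 to 4711 genes higher in anther and 3333 to 4396 higher in panicle, and the unfiltered counts are equal by construction. Among 137 single genes none of the called differences changed sign under these settings; 14 lost their call with equal totals, 4 with quantile normalization, 1 with centring and 1 by row. Depth is unknown, so low values, such as those of MST1 or CMT3, carry an error that could not be given.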

Other observations

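Some entries that lay within 2-fold in WT differed between the organs of the knockdown. DCL1, a Dicer-like gene, stood at 12.6 and 7.04 FPKM in the WT organs, but at 5.54 FPKM in knockdown anther against 10595 FPKM in knockdown panicle. The joined entry DCL1,,Os03g0121700, at the same locus, had 8.93 FPKM in knockdown anther and 4.64 FPKM in knockdown panicle. The value of 10595 FPKM thus rests on the DCL1 entry alone, and whether it reflects DCL1 transcript was not tested. Of the chitinases level in WT, Cht1 had 102 FPKM in knockdown anther and 1.96 FPKM in knockdown panicle, Cht6 had 19.5 and 0.296 FPKM, and Cht9,Os05g0399300 had 58.2 and 4.45 FPKM. DHAR1 had 182 and 562 FPKM. The differences between genotypes were not tested.

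The 15 lists of textbook symbols and aliases matched few entries of the table. No member was found of the lists for cell division (122 symbols), pollen wall lipids (36) and tapetum proteases (19). The tapetum regulators (21) were represented by MSP1, within 2-fold. Meiosis (67) was represented by CRC1 and PSS1, both within 2-fold, and floral MADS genes (64) by 4 entries, of which 2 were compared and both lay within 2-fold. The late pollen list (56) gave FH5, within 2-fold, and PSA2, higher in panicle, whose symbol in the table is that of a photosystem assembly factor. Photosynthesis (111) gave PORB, higher in panicle, and the psbE and psbF entry, within 2-fold. Panicle meristem genes (180) gave 6 entries, of which 2 were compared, OSH1 and HOX22, both higher in anther. Of 13 compared entries of the sugar and starch list 4 were higher in anther and 3 in panicle, and of 7 hormone entries 3 and 1. Of 7 transport and stress entries the counts were 1 and 4, of 8 defence entries 1 and 1, and of 5 silencing and methylation entries 0 and 1. The 1 compared cell wall entry was higher in panicle. Over all compared genes 20.4% were higher in anther and 18.1% in panicle, and lists this small were not tested against those shares. With equal totals the counts of these 5 lists, in the same order, became 2 and 5, 1 and 3, 0 and 4, 0 and 2, and 0 and 2. Few of the usual markers of the labelled organs were therefore checked.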
